A study of Rattus norvegicus with 4 samples.

Results

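miR-223 and miR-142 are the microRNAs (miRNAs) most closely tied to myeloid and other blood cells, and their 4 mature arms, rno-miR-223-3p, rno-miR-223-5p, rno-miR-142-3p and rno-miR-142-5p, are described here in extracellular vesicles released by cultured rat macrophages. The 4 arms were taken by name from the 758 mature rat miRNAs on the array, where they have 9 probes and 64 spots per array among 1806 probes and 12128 spots. Other names are given without the prefix rno- for rat. The M1_OA group (n = 2 arrays) is vesicle RNA of inflammatory (M1) macrophages grown from male Sprague-Dawley rats with knee osteoarthritis. The M0_sham group (n = 2 arrays) is vesicle RNA of resting (M0) macrophages from sham-operated males of the same strain. In the osteoarthritis rats, the medial meniscus of the right knee was destabilised and the anterior cruciate ligament cut at 8 weeks of age. Marrow was taken 8 weeks after either operation, at 16 weeks of age, and its CD45+CD11b+ cells were sorted. Both groups were grown to day 7 in medium with fetal bovine serum and 20 ng/mL M-CSF, the macrophage growth factor. M1 cells were then exposed for 48 hours to lipopolysaccharide (LPS) at 100 ng/mL with interferon-γ at 20 ng/mL, and for 60 minutes to 5 mM ATP, a stimulus that activates the inflammasome. Operation, polarisation and ATP change together, so their parts cannot be told apart. The sources do not say that the 2 replicates of a group came from separate rats or cultures, and p-values cover no more than the spread between these arrays.

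A miRNA hairpin is cut into a 5p and a 3p arm, and the bases 2 to 8 of each arm, its seed, choose the messages it represses. The gene of miR-223 lies on the X chromosome and is switched on in the myeloid lineage, where the 3p arm is the abundant product. In mouse, miR-223 restrains the production of neutrophils, and in mouse and human cells miR-223-3p represses the inflammasome sensor NLRP3. miR-142 is made in nearly all haematopoietic cells, and both of its arms enter the silencing complex. Vesicles shed by blood cells are known to carry miR-223.

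The mature arms (RefSeq, build GRCr8) are shown first, since each arm has its own seed, set in capitals, and its own probes.
rno-miR-223-3p: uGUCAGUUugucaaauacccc
rno-miR-223-5p: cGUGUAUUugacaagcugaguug
rno-miR-142-3p: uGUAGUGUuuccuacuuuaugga
rno-miR-142-5p: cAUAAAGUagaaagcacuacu
No 2 of the 4 arms share a seed, and 0 other entries among 724 mature rat miRNAs in RefSeq carry any of the 4. Mir223 lies on the plus strand with the 5p arm at chrX:65151408-65151430 and the 3p arm at chrX:65151450-65151470. Mir142 lies on the plus strand with the 5p arm at chr10:73055119-73055139 and the 3p arm at chr10:73055155-73055177. The hairpins are printed with both arms in capitals, to show that the arms of each gene come from 1 precursor.
Mir223 hairpin: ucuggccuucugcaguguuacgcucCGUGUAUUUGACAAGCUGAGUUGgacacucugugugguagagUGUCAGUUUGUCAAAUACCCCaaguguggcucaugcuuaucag
Mir142 hairpin: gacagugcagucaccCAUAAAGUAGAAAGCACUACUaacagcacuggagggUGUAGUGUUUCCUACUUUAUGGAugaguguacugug

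Each probe is the reverse complement of a stretch of its arm, and how much of the arm it covers differs between the members. The longest probe of each arm, and the second probe of miR-223-3p, are given with the bases that pair with the seed in capitals.
miR-223-3p, 21-base probe: ggggtatttgacaAACTGACa
miR-223-3p, 20-base probe: ggggtatttgacaAACTGAC
miR-223-5p, 17-base probe: caactcagcttgtcaAA
miR-142-3p, 23-base probe: tccataaagtaggaaACACTACa
miR-142-5p, 19-base probe: agtagtgctttctACTTTA
The probes of miR-223-3p and miR-142-3p pair with the whole seed, whereas those of miR-223-5p start at base 7, 8 or 9 of the arm and those of miR-142-5p at base 3 or 4. No stretch of 12 bases of any member's probe matched another rat miRNA (0 for each of the 4 arms). A member's signal is the processed signal of the scanner software (background-subtracted brightness in arbitrary units, which can be negative), averaged over the unmarked spots of each probe and summed over its probes. An arm was called well above background where the software's flag of that name was set on more than a share of 0.5 of the spots of 1 or more of its probes.

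Of the 4 arms, rno-miR-223-3p alone was detected. Its summed signal was 59.7 and 43.7 on M1_OA replicates 1 and 2, against 23.1 and 16.6 on M0_sham replicates 1 and 2. Both M1_OA arrays and 1 of the 2 M0_sham arrays had it well above background. All 15 unmarked spots on M1_OA replicate 1 and all 14 on M1_OA replicate 2 carried the flag, against 14 of 15 on M0_sham replicate 1 and 0 of 16 on M0_sham replicate 2. The M0_sham replicates thus differ in the call, and replicate 2 was also the dimmer of the 2. The limit above which the software set the flag differed between arrays, at a spot signal of 14.1 on M1_OA replicate 1, 13.9 on M1_OA replicate 2, 7.26 on M0_sham replicate 1 and 13.2 on M0_sham replicate 2. The spots of M0_sham replicate 2, between 3.08 and 11.2, stayed under their own array's limit. With the limit of M0_sham replicate 1 on every array, miR-223-3p passed on 4 arrays, and with the highest limit it passed on 2, both M1_OA.

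**Figure D1:**
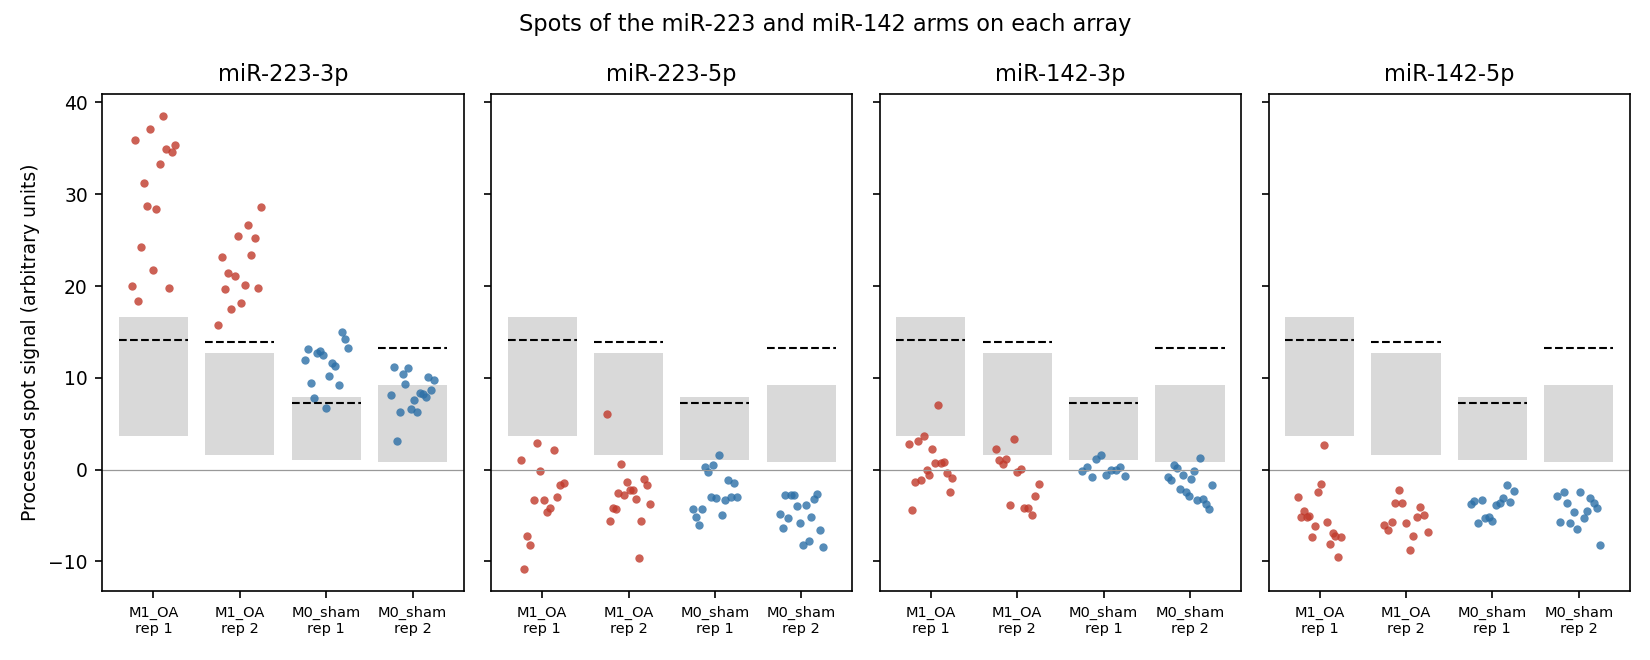
Processed signal of every unmarked spot (points; vertical axis in arbitrary units) of the 4 arms on the M1_OA arrays (red) and the M0_sham arrays (blue). Grey boxes span the 5th to 95th percentile of each array's negative-control spots and dashed lines mark the lowest spot well above background; miR-223-3p lies above its line on both M1_OA arrays and largely on M0_sham replicate 1, while the other arms lie under every line.

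The array's negative-control spots give a second measure of background on the same arrays. Their median signal was 10.6 and 6.96 on M1_OA replicates 1 and 2, against 4.30 and 4.72 on M0_sham replicates 1 and 2. Their 95th percentile was 16.6 and 12.7 on the M1_OA arrays, against 7.94 and 9.27 on the M0_sham arrays. These controls were brighter than the median miRNA spot, which lay below 0 on every array, between -3.45 and -1.81. Of 60 unmarked spots of miR-223-3p in all, 59 exceeded their array's negative-control median. All spots passed the 95th percentile on both M1_OA arrays, as did 13 of 15 on M0_sham replicate 1, against 6 of 16 on M0_sham replicate 2. The signal of M0_sham replicate 2 therefore lay inside the upper range of its controls. With the control median taken off each spot, the summed signal was 38.0 and 29.3 on the M1_OA arrays, against 14.4 and 7.26 on the M0_sham arrays.

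The other 3 arms were not detectable in either group. rno-miR-142-3p, whose probes cover the full seed, had summed signals of 1.22 and -1.83 on M1_OA replicates 1 and 2, against 0.143 and -3.13 on M0_sham replicates 1 and 2. rno-miR-142-5p had -10.3 and -10.8 on the M1_OA arrays, against -7.47 and -8.96 on the M0_sham arrays. The partner strand of the detected arm, rno-miR-223-5p, had -8.99 and -7.88 on the M1_OA arrays, against -7.23 and -14.7 on the M0_sham arrays. None of their 173 unmarked spots was well above background (0 of 173), and 0 exceeded their array's negative-control median. A looser flag of the software, for a signal positive and significant, was carried by 8 of the 173 spots (4.62%), against 60 of 60 for miR-223-3p. That flag is a weak criterion here, since 80.3% to 97.0% of the negative-control spots carried it. The 3 arms had 0 of 4 arrays under each of the 8 detection calls tried. Values this low have no fold, and the arrays do not show how much of these arms could be present in the vesicles without being detected.

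Base composition separated the members in part. The probes of miR-142-5p and miR-142-3p averaged 32.5% and 35.6% G and C, against 43.9% for both arms of miR-223 and a median of 48.7% over the 758 miRNAs. Of the 63 miRNAs whose probes have no more G and C than those of miR-142-3p, 1 was detected (well above background on 1 or more arrays; 1.59%), against 55 of all 758 (7.26%). At or below the value of miR-223-5p there were 238 miRNAs, of which 11 (4.62%) were detected. Whether base composition has a part in the missing signal was not tested.

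Both probes of miR-223-3p gave the same order of groups. The 21-base probe averaged 35.7 ± 1.70 and 24.6 ± 2.83 on M1_OA replicates 1 and 2, against 12.6 ± 1.70 and 9.21 ± 1.65 on M0_sham replicates 1 and 2 (SD over 7 to 8 spots of 1 array). The 20-base probe, shorter by the base that pairs with the 5′ end, averaged 24.1 ± 4.85 and 19.1 ± 2.06 on the M1_OA arrays, against 10.4 ± 2.44 and 7.43 ± 2.21 on the M0_sham arrays. The groups did not overlap for either probe, as for 80.5% of the 41 miRNAs tested below, without scaling and with M1_OA on top. Without scaling, M1_OA over M0_sham was 2.75-fold by the 21-base probe and 2.44-fold by the 20-base probe, from geometric means of the 2 arrays of a group. These folds rest in part on M0_sham replicate 2, where 0 of the 16 spots were well above background, and are not exact for that reason.

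The contrast between groups turned on how the arrays were put on 1 scale. The summed signal of miR-223-3p averaged 51.7 ± 11.3 in M1_OA and 19.8 ± 4.54 in M0_sham (SD, n = 2 each), a ratio of means of 2.61, and the groups did not overlap. Fitted without scaling, the log2 difference, M1_OA minus M0_sham, was 1.38 ± 0.30 (SE), with an adjusted p of 0.00932 (limma, Benjamini-Hochberg over 41 miRNAs, those with both arrays of 1 or both groups well above background). That fit called 78.0% of the 41 miRNAs, all of them higher in M1_OA (32 higher, 0 lower), and the arrays of 80.5% did not overlap with M1_OA on top. Of the 41, 29 entered through M1_OA alone, miR-223-3p among them, 1 through M0_sham alone and 11 through both groups. The filter thus favoured miRNAs brighter in M1_OA, and neither the adjusted p of miR-223-3p, the count of calls nor the median of 1.96 over the 41 is free of that choice. By the labels' protocols each array took 0.2 µg of bulk vesicle RNA. If so, a signal is per amount of RNA, but whether the labels' labelling text applies to these arrays is unclear. Levels per vesicle or per cell were not measured and cannot be told from these signals.

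Each array was then divided by the 75th percentile of the 11 miRNAs that all 4 arrays had well above background, and on that scale miR-223-3p did not pass the test. Its scaled signal was 28.0 and 30.0 on M1_OA replicates 1 and 2, against 47.1 and 25.4 on M0_sham replicates 1 and 2. The M0_sham replicates enclosed both M1_OA values. The log2 difference was -0.25 ± 0.37 (SE, n = 2 each), with a 95% interval of -1.36 to 0.85 and an adjusted p of 0.576 (limma, Benjamini-Hochberg over 41). The interval spans a fall and a rise, so equal levels are not shown. Of the members, 1 was tested and 0 were called. That fit called 63.4% of the 41 tested miRNAs, 22 higher and 4 lower in M1_OA, with a median difference of 0.62. The common floor of 7.90 in that fit lies under the lowest scaled signal detected on the M0_sham arrays, 15.9 and 40.7. With each array's own lowest detected signal as its floor, 6 of the 41 were called (4 higher, 2 lower) and the median was -0.21. In that fit miR-223-3p stood at -0.60, with an adjusted p of 0.496 (limma). Its scaled signal of 25.4 on M0_sham replicate 2 was replaced by the floor of 40.7 there, so -0.60 is not a difference of measured signals alone. Without the filter on dim miRNAs the other 3 arms entered at the floor on every array, with a difference of 0, and the fit called 1.85% of 758 miRNAs and 0 of the 4 arms. The two-sided exact permutation test of 2 arrays against 2, whose smallest possible p is 0.333, gave 1. Without M0_sham replicate 1 the difference was 0.40, with an adjusted p of 0.187 by limma, and the other replicates left out in turn kept it at -0.45 to -0.20.

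The scaling factor itself differed between groups by more than miR-223-3p did. It was 657 and 448 on M1_OA replicates 1 and 2, against 151 and 202 on M0_sham replicates 1 and 2, a log2 difference of 1.64 set against 1.38 for the unscaled miRNA. Of the 11 miRNAs behind the factor, 4 had a larger unscaled difference than miR-223-3p and 7 a smaller one, with a median of 0.69. The 5 with the 4-base motif CTCC in a probe ran from 0.49 to 4.17, whereas the 6 without it ran from -0.47 to 1.02. CTCC is in 0 of the 9 probes of miR-223 and miR-142. With the percentile taken over those 6, the difference of miR-223-3p turned to 0.99, with an adjusted p of 0.269 (limma, 51.2% of the 41 called).

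Other scales gave both directions. Divided by the labelling spike-ins, synthetic RNAs added before labelling that were dimmer in M1_OA than in M0_sham by a log2 of 0.53 (a difference of -0.53), miR-223-3p differed by 1.92, with an adjusted p of 0.00672 (limma, 82.9% called, median 2.49). After quantile normalization it differed by -0.59, with an adjusted p of 0.253 (limma, 46.3% called). In the authors' deposited table it stood at 1.16 and 0.94 on M1_OA replicates 1 and 2, against 2.18 and 2.10 on M0_sham replicates 1 and 2, on a log2 scale. Fitted on the authors' deposited table, the difference was -1.09, with an adjusted p of 0.0224 (limma, 53.7% called, and 9.76% called lower). The groups do not overlap in the authors' deposited table, as for 26.8% of the 41 with M1_OA below. They do not overlap without scaling either, in the opposite direction. With normexp in place of the software's background subtraction, under the 75th percentile, the difference was -0.84, with an adjusted p of 0.00294, in a fit that called 70.7% of the 41, 25 of them lower (limma). The offset of 50 that normexp adds to each spot exceeded every processed spot of miR-223-3p, the highest being 38.5. Relative to the median of the 41, which the filter raises, the difference of miR-223-3p was -0.57 without scaling, -0.87 with the 75th percentile, -0.05 with normexp and -1.94 in the fit on the authors' deposited table. With the negative-control median subtracted and no scaling it was 0.23, on the other side of the median. The 2 scan sessions recorded in the files hold 1 group apiece, and session and group cannot be told apart.

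**Figure D2:**
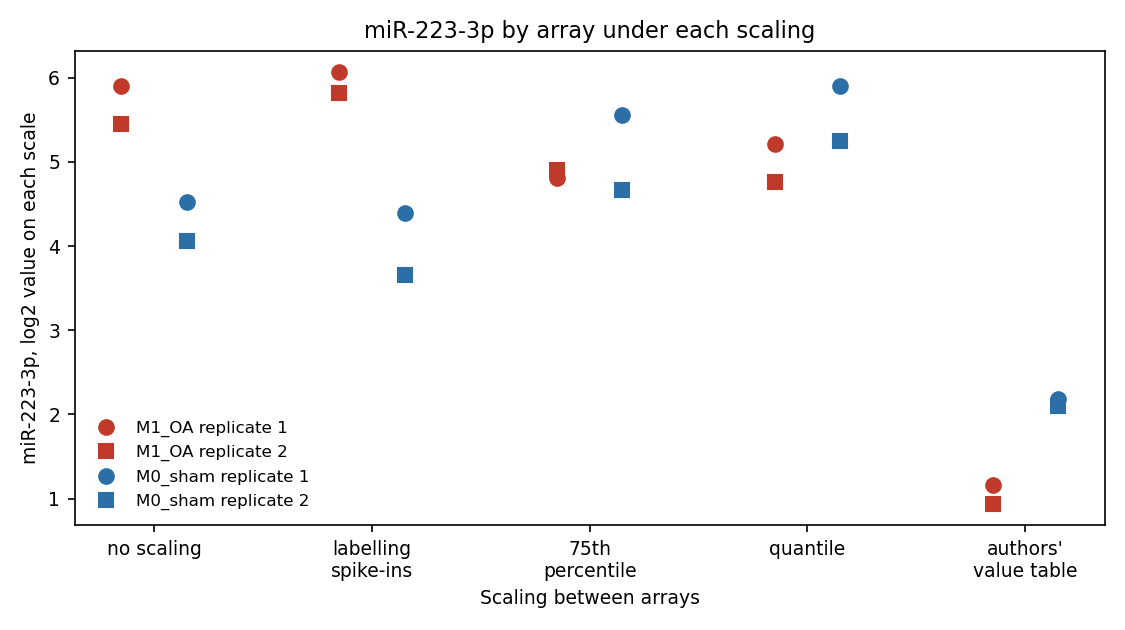
log2 value of miR-223-3p (vertical axis) on the 2 M1_OA arrays (red) and the 2 M0_sham arrays (blue) under 5 ways of scaling the arrays (horizontal axis); circles are replicate 1 and squares replicate 2. M1_OA lies above M0_sham without scaling and by spike-ins, overlaps it with the 75th percentile, and lies below it by quantile normalization and in the authors' deposited table; levels are not comparable between scales.

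**Figure D3:**
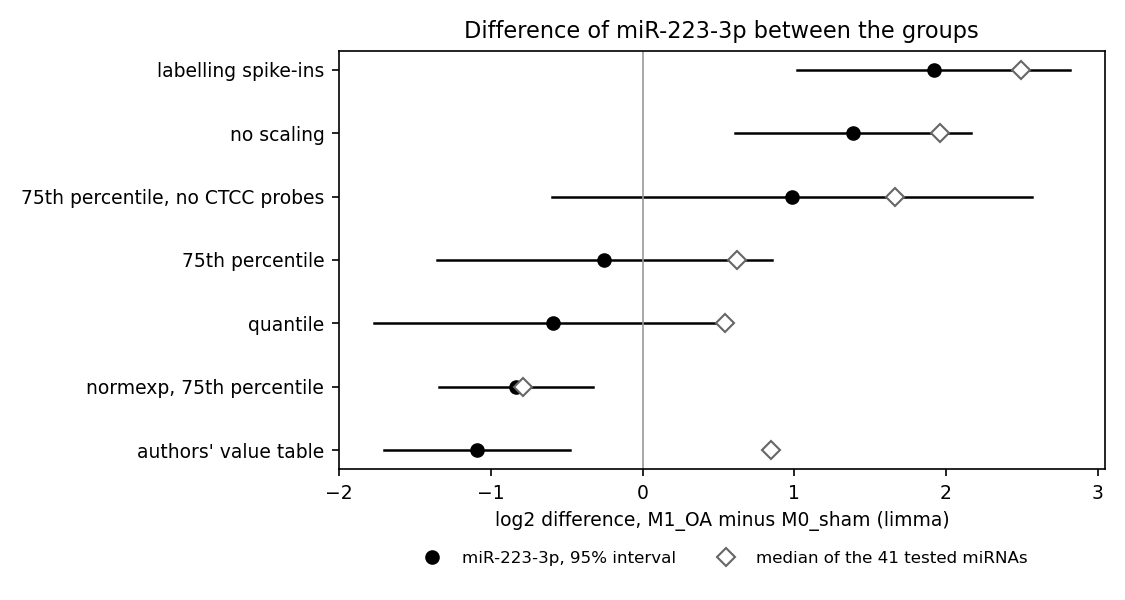
log2 difference of miR-223-3p, M1_OA minus M0_sham (points, horizontal axis), with its 95% limma interval (lines), under 7 settings, and the median difference of the 41 tested miRNAs (open diamonds). The point runs from 1.92 by spike-ins to -1.09 in the authors' deposited table; the median is over miRNAs that mostly passed the filter through M1_OA alone.

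A rank within an array needs no scaling. By summed signal, miR-223-3p was 19th and 26th of 758 on M1_OA replicates 1 and 2, against 13th and 18th on M0_sham replicates 1 and 2. Its place was thus lower on both M1_OA arrays, although its signal was higher there, and the rank on M0_sham replicate 2 is that of a signal not well above background. With normexp the ranks overlapped, at 156 and 185 in M1_OA, against 173 and 178 in M0_sham, and the order of the mean ranks turned. More miRNAs were well above background in M1_OA, 42 and 45, against 23 and 13 in M0_sham. Set against the summed signal of the miRNAs well above background on the array, without the brightest, miR-1224, it came to 1.04% and 0.873% on the M1_OA arrays, against 2.50% and 1.43% on the M0_sham arrays. With miR-1224 kept in the sum it came to 0.251% and 0.196% on the M1_OA arrays, against 0.637% and 0.256% on the M0_sham arrays, so that M0_sham replicate 2 and M1_OA replicate 1 were about equal. On M0_sham replicate 2 it is not itself part of either sum. How many other miRNAs fell in rank or in share of signal in M1_OA was not counted. Neither fall is thus shown to be particular to miR-223-3p. A rank of signal is not a rank of abundance, since probes differ in how strongly they bind.

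**Figure D4:**
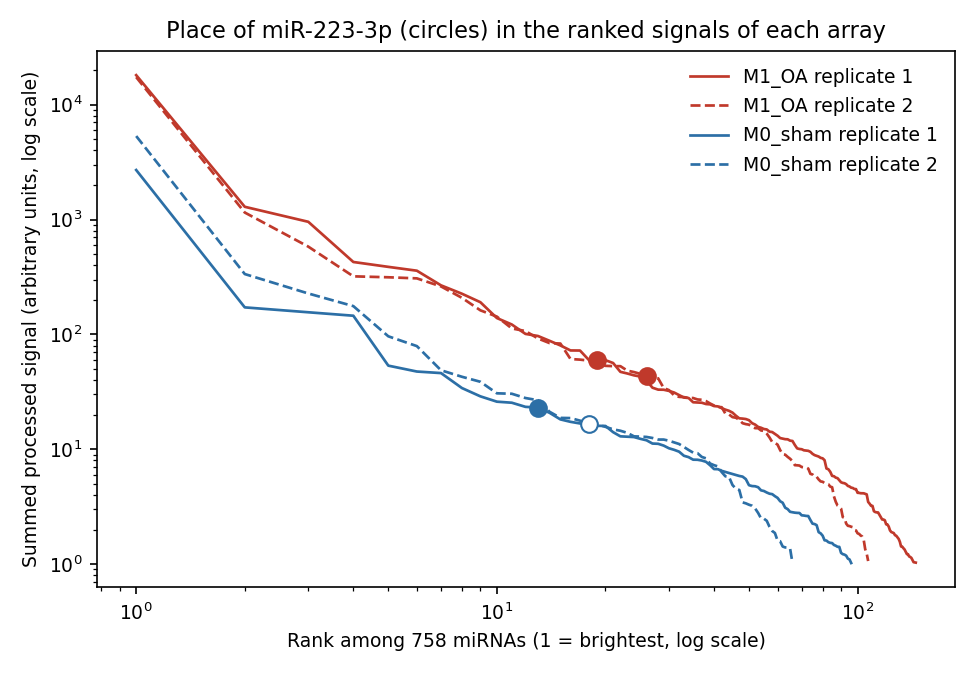
Summed processed signal (vertical axis, arbitrary units, log scale) against rank among 758 miRNAs (horizontal axis, log scale) on each array, for values above 1. Circles mark miR-223-3p, filled where it was well above background; it lies at ranks 19 and 26 on the M1_OA curves (red) and 13 and 18 on the lower M0_sham curves (blue).

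The tested miRNAs that followed miR-223-3p most closely over the 4 arrays were picked by the root mean square difference of their scaled log2 values after each was centred on its own mean. The nearest was miR-494-3p, at 0.13, with signals of 23.6 and 19.1 on M1_OA replicates 1 and 2, against 7.78 and 6.33 on M0_sham replicates 1 and 2. miR-92a-3p, a product of the miR-17-92 cluster, came next at 0.23, with 18.3 and 14.6 on the M1_OA arrays, against 10.2 and 7.09 on the M0_sham arrays. miR-3593-3p followed at 0.23, with 28.2 and 28.6 in M1_OA, against 14.1 and 12.2 in M0_sham. Of these, miR-494-3p and miR-92a-3p were well above background on 3 arrays, not on M0_sham replicate 2. miR-3593-3p was so on 2, both M1_OA. The likeness thus rests in part on M0_sham signals not well above background. Over all 40 tested miRNAs other than miR-223-3p the median distance was 0.83. The scaled log2 differences of miR-494-3p, miR-92a-3p and miR-3593-3p, M1_OA minus M0_sham, were -0.04, -0.69 and -0.52. The choice by likeness holds these values near that of miR-223-3p.

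Other miRNAs of blood cells set the context. Of 13 listed, 4 passed the background call on both M1_OA arrays and on 0 M0_sham arrays, where 55 of all 758 (7.26%) passed on 1 or more arrays. miR-21-5p, abundant in activated macrophages, had 387 and 320 on M1_OA replicates 1 and 2, against 3.10 and 0.122 on M0_sham replicates 1 and 2. miR-146a-5p, a brake on NF-κB signalling, had 191 and 107 in M1_OA, against -1.35 and -4.84 in M0_sham. miR-155-5p, which LPS induces in macrophages, had 72.4 and 60.3 in M1_OA, against -3.30 and -6.63 in M0_sham. miR-16-5p, a widely expressed miRNA of blood cells, had 45.7 and 32.7 in M1_OA, against -2.82 and -4.96 in M0_sham. These 4 entered the test through M1_OA alone, so their direction was fixed by the filter, and all 4 were called higher (median log2 difference 2.80, floored in M0_sham), beside 22 of the 41 tested. Together with the 4 arms this makes 17 listed miRNAs, of which 1, miR-223-3p, was well above background on an M0_sham array. Few miRNAs of any kind were, 23 and 13 of all 758 on M0_sham replicates 1 and 2. The low count in M0_sham is thus not shown to be particular to the listed miRNAs. The other 9 of the 13 were well above background on no array.

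**Figure D5:**
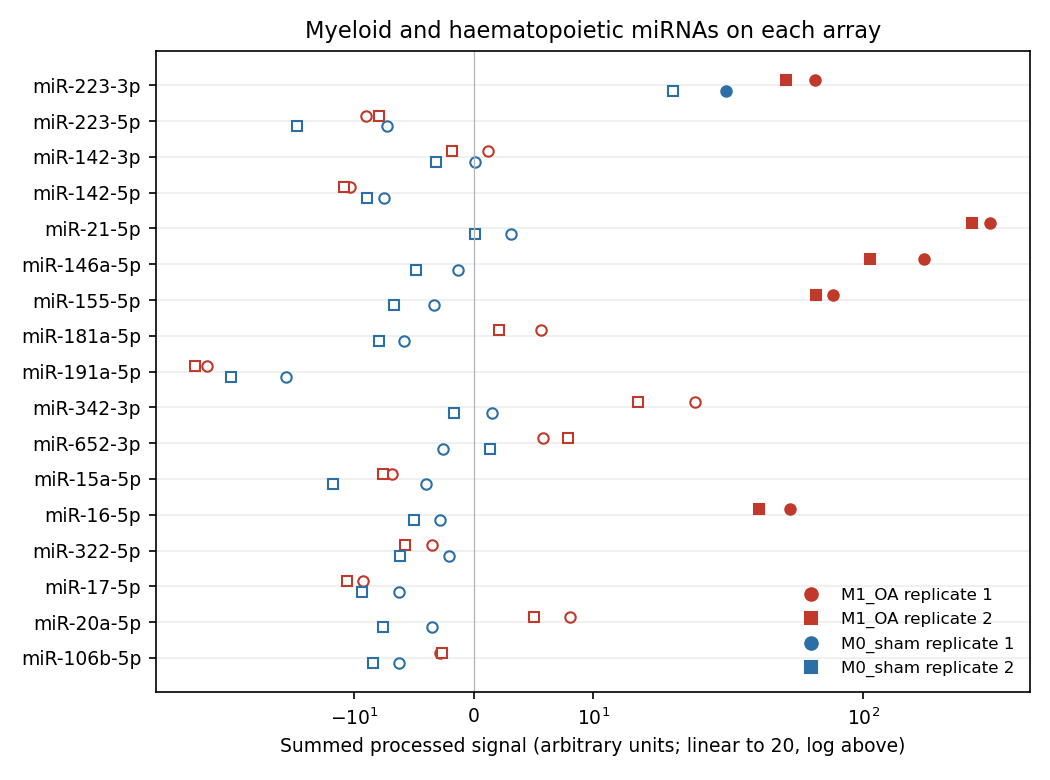
Summed processed signal (horizontal axis, arbitrary units, linear to 20 and log above) of the 4 arms and the 13 other haematopoietic miRNAs on each array, M1_OA in red and M0_sham in blue, filled where well above background. On the M0_sham arrays 1 point is filled, that of miR-223-3p on replicate 1; on each M1_OA array 5 are filled.

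Markers of other cells were read on the same arrays. The lists for erythroid cells (3 miRNAs), platelets and endothelium (2), stroma (5), epithelium (4), neurons (2) and liver or serum (1) had 0 of 17 members that passed the background call on an array, where 7.26% of all 758 miRNAs did. As most haematopoietic miRNAs were also undetected, this absence does not check the purity of the cells. Of the 4 lymphocyte miRNAs, 1 was detected, miR-155-5p, which macrophages also make. That list overlaps the one of blood-cell miRNAs above, where miR-155-5p was already counted. Of the 3 muscle miRNAs, 1 was detected on 1 array: miR-206-3p had 15.7 and 29.5 on M1_OA replicates 1 and 2, against 1.25 and 11.5 on M0_sham replicates 1 and 2. Of the myeloid markers, miR-223-3p passed the background call on 2 of 2 M1_OA arrays and 1 of 2 M0_sham arrays (0 with the highest spot limit on every array), and neither arm of the pan-haematopoietic miR-142 passed it on any of the 4. RNA of the cells themselves was not analysed here.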

How the data were processed

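Vesicle RNA (0.2 µg, per the labels' protocols) of 4 samples was hybridised to Agilent rat miRNA arrays with 1 dye, Cy3. The labelling text describes linear amplification of cRNA, and whether it applies to these arrays is unclear. The submitters' processing notes name Agilent Feature Extraction 10.7.1.1 as the source of the deposited spot intensity. Background had been subtracted per the file headers, outlier spots were marked and arrays were not scaled. The software's flags, gene signals and probe totals are deposited beside it. The authors' deposited table holds log2 values with a floor of -3.32, the log2 of 0.1. How the authors normalized it is not given in the sources used here. Of its values above the floor, 97.0% to 100% recur in another column, and each column kept the order of that array's total signal over probes above 3 errors (Spearman rho 1 across 60, 56, 37 and 22 miRNAs on M1_OA replicates 1 and 2 and M0_sham replicates 1 and 2).

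Unmarked spots were averaged and probes summed. Signals were scaled to the 75th percentile over 11 miRNAs, floored at 7.90 and logged. The 41 tested miRNAs were fitted with limma 3.58.1 in R 4.3.3 (lmFit, eBayes, two-sided, Benjamini-Hochberg, threshold 0.05). The code of the fit was first run on simulated data with no floor and no detection filter. That run does not show how the fit behaves on these floored and filtered signals. No spot was saturated (0 on each array). The number of arrays limits the precision. The members, lists and tests were chosen with earlier results of these data known; named are the 4 arms, listed miRNAs that were detected, and the 3 nearest in pattern. Alternatives changed the background correction (normexp, offset 50), scaling, source table, filter, detection call, probe summary, floor, variance prior, replicate block, threshold and replicates. Negative-control subtraction, total probe signals, single probes, common spot limits, the software's gene flag and a crossed block were chosen after seeing the data. Plots used matplotlib 3.10.9.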

Additional observations from a re-analysis of the deposited data

How the results depend on the processing

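Among 25 alternative fits, the miR-223-3p difference was negative in 19 and positive in 6. These fits are not independent checks of the sign. Those that changed only to a looser filter, the variance prior, the replicate block or the averaging of probes kept -0.25 by construction. Most of the other negative fits kept the 75th percentile scaling. The miR-223-3p difference passed the limma threshold lower in M1_OA with normexp (-0.84, adjusted p 0.00294) and in the authors' deposited table (-1.09), and higher in M1_OA without scaling (1.38), by spike-ins (1.92) and by total probe signals without scaling (1.81, adjusted p 0.0332). The normexp offset of 50 per spot exceeded every processed spot of miR-223-3p. Total probe signals counted only the 21-base probe on M0_sham replicate 2, where the 20-base probe stood at 2.73 errors, and both probes on the other arrays. The difference was positive without passing when CTCC probes were left out of the scaling (0.99) and with the negative-control median subtracted and no scaling (1.66, adjusted p 0.0733, with values under 7.78 set to it). Leaving out 1 replicate each gave -0.45 to 0.40, turning positive without M0_sham replicate 1. The cause of these turns was not tested. The 26 calls became 14 without a filter (11 higher, 3 lower), 3 with detection on all 4 arrays, where miR-223-3p has no value, and 6 with a floor per array (4 higher, 2 lower), and were 20 to 24 with 1 replicate left out. Normexp turned the split to 4 higher and 25 lower. Presence of miR-223-3p was 3 arrays by the well-above-background call, 4 by the positive-and-significant flag, the table's floor, the software's gene flag and the lowest spot limit, and 2 by the highest limit; the other arms had 0 throughout. Its mean rank was 22.5 in M1_OA and 15.5 in M0_sham, and 170.5 and 175.5 with normexp, whose offset counts once per probe. By the software's gene signal the mean rank was 35 in M1_OA and 13 in M0_sham. The latter includes rank 6 on M0_sham replicate 2, where that gene signal was 12.5 times the probe total. The replicate numbers share no stated animal (correlation of deviations 0.31 over 41 miRNAs, -0.22 over the 11 on all arrays). The replicate block gave 26 calls and -0.25 for miR-223-3p (adjusted p 0.484, limma), and the crossed pairing 23 calls. The 75th percentile over all miRNAs was not run, as it is not above 0 on every array. Signals under 7.78 to 26.7, the arrays' lowest detected, are not resolved.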

Other observations

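The scanner software's own gene signal for miR-223-3p was 31.7 and 23.2 on M1_OA replicates 1 and 2, against 12.2 and 61.1 on M0_sham replicates 1 and 2. On M0_sham replicate 2 that value was 12.5 times the total of the probes above 3 of their errors, 4.89, whereas on the other 3 arrays the ratio was 1.00. On that array the 21-base probe stood at 3.32 errors and the 20-base probe at 2.73. Where every probe of a miRNA was above 3 errors, gene signal and probe total were equal within 1% for 34 of 34 and 31 of 31 miRNAs on the M1_OA arrays, and for 22 of 22 and 14 of 14 on the M0_sham arrays. Where only some probes were, the gene signal ran from 1 to 14.6 and 1 to 17.8 times the total on the M1_OA arrays, and from 1 to 35.2 and 1 to 20.0 times on the M0_sham arrays.

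In the authors' deposited table, miR-223-3p ranked 19th and 25th on M1_OA replicates 1 and 2, against 12th and 17th on M0_sham replicates 1 and 2, close to its ranks by processed signal. That table also lists miRNAs above its floor that had no probe above 3 errors on the array concerned: 0 and 8 on the M1_OA arrays, against 25 and 41 on the M0_sham arrays. The 3 arms without signal are at its floor on all 4 arrays.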
